A study of Mus musculus with 10 samples.

Results

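The 33 immediate early and heat shock genes described here were followed in RNA sequencing of sorted mouse epidermal keratinocytes that lacked a subunit of Polycomb repressive complex 2 or 1. They were chosen by symbol from the gene names of the deposited tables, and all 33 were present among the 18502 genes of the Eed table and the 18344 genes of the Ring1 table. The 10 libraries came from back skin epidermis of mice at postnatal day 71, gated by flow cytometry on high α6-integrin, EpCAM and Sca1, the surface profile of basal cells between the hair follicles. Eed KO libraries (n = 3) had the genotype Eed -/- and were set against the Eed Control group (n = 3). Ring1a/b 2KO libraries (n = 2) had the genotype Ring1a-/- Ring1b-/- and were set against a separate Ring1 Control group (n = 2). Recombination was induced in shaved back skin at postnatal day 50 with 4-hydroxytamoxifen at 20 mg/ml, 100 µl a day for 4 days. The sources used here do not give the driver of the recombinase, the floxed exons, the strain or any allele of the controls. The skin was digested with warm trypsin before sorting, and the RNA was amplified.

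Immediate early genes are transcribed within minutes of a signal without new protein synthesis, from promoters that hold factors such as SRF with its ternary complex partners and CREB ready for phosphorylation. Many encode transcription factors, among them the FOS and JUN proteins that pair as AP-1, and others encode inhibitors that shut the signal off again. Heat shock genes encode chaperones and are induced by heat shock factor 1 when unfolded proteins build up. Both sets are known to be induced in many tissues by enzymatic dissociation, and several, such as Klf4 and the AP-1 factors, also act in normal epidermal differentiation.

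Promoter sequences were available for 26 of the 33 genes, from RefSeq on GRCm38.p6, as windows of 250 bases before to 50 bases after the gene start. The windows were searched on both strands, with motifs and printed genes chosen after the values were seen. Egr1, Egr3, Fosl1, Hsp90aa1, Hspa8, Ier2 and Myc had no window. The CArG box, the site of SRF, was found by its usual consensus in 1 of 26 windows, that of Zfp36, and in 1.57% of the 27025 genes with a window. The cAMP response element TGACGTCA, the site of CREB, was found in 2 of 26 windows, Dusp1 and Btg2, and in 1.88% of all genes. The AP-1 site TGANTCA was found in 0 of 26 windows and in 7.93% of all genes. The heat shock element core GAANNTTC was found in 6 of 26 windows and in 7.95% of all genes. It lay in 4 of the 5 heat shock genes with a window (Hspa1a, Hspa1b, Hspb1 and Hsph1), and in Fosl2 and Jun. The TATA box letters TATAAA, on either strand, were found in 4 of 26 windows, Fos, Junb, Gadd45b and Nr4a2, and in 14.2% of all genes. They begin 33 bases before the start in Fos and 46 in Gadd45b. In Nr4a2 they lay on the other strand, 164 bases before the start. In Junb the match was not within the 250 bases before the start. These stretches are shown as examples that carry the motifs: 3 early genes with large read counts, and 3 heat shock genes, among them the pair that shares reads. Each is the 150 bases before the RefSeq start, read 5′ to 3′ on the strand of the gene, with the motif in capitals: the TATA box of Fos (chr12:85473740-85473889, plus strand), the CArG box of Zfp36 (chr7:28379229-28379378, minus strand), the cAMP response element of Dusp1 (chr17:26508473-26508622, minus strand), and the heat shock element cores of Hspa1a (chr17:34972157-34972306, minus strand), Hspa1b (chr17:34959239-34959388, minus strand) and Hspb1 (chr5:135887769-135887918, plus strand).
Fos: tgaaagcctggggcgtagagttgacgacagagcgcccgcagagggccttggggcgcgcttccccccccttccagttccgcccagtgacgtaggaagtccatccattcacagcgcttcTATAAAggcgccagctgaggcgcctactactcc
Zfp36: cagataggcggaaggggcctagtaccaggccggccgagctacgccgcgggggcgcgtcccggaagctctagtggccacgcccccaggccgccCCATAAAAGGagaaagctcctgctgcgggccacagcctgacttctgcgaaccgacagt
Dusp1: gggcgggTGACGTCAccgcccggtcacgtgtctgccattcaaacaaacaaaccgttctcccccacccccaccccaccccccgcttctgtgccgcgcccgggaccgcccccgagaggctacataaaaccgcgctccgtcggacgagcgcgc
Hspa1a: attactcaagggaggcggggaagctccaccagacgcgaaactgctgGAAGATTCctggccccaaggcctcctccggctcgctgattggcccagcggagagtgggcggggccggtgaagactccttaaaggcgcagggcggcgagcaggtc
Hspa1b: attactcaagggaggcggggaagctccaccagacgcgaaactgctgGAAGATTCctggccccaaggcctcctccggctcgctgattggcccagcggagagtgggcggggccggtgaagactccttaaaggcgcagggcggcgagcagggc
Hspb1: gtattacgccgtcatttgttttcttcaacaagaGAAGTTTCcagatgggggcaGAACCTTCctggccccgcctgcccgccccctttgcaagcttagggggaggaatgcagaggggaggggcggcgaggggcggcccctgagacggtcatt
The Hspa1a and Hspa1b stretches differed at 1 of 150 bases, and both cores begin 104 bases before the start. In Hspb1 the cores begin 117 and 97 bases before the start. The CArG box of Zfp36 begins 58 bases before its start and the TATA box of Fos 33 bases before its start. A match describes letters in a window, and binding was not measured.

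The Eed libraries held between 31699979 and 40701183 recovered reads, and the Ring1 libraries between 6237389 and 25158144. Library 2 of each Ring1 group was the shallow one, with 7162907 reads in the control and 6237389 in the 2KO. Mitochondrially encoded genes took 2.34% to 3.58% of reads in the Eed libraries and 6.51% to 12.7% in the Ring1 libraries, with the highest share in 2KO library 2. Summed Y-linked counts were 5804, 4058 and 25.3 in Eed controls 1 to 3, against 14.4, 4743 and 26.8 in the Eed KO libraries. They were 1665 and 630 in the Ring1 controls, against 9.27 and 50.2 in the 2KO libraries, so this signal and the genotype cannot be told apart in that comparison. Krt14, the defining basal keratin, had normalised read counts of 348638 to 662363 in the Eed libraries and 57541 to 92857 in the Ring1 libraries. No listed marker among the deposited genes was at 0 in all libraries. Some markers were not among those genes: 3 of 4 Merkel cell markers were present in both comparisons. For Ring1, 3 of 4 endothelial and 2 of 4 red blood cell markers were present. Whole-gene counts of Eed were 1845, 1319 and 1706 in its controls, against 1412, 1143 and 1340 in the Eed KO. Counts of Ring1 (Ring1a) were 66.2 and 211 in its controls, against 104 and 115 in the 2KO, and those of Rnf2 (Ring1b) were 675 and 670 against 720 and 529. Without the floxed exons these counts cannot check the labels.

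The 33 genes ranged from some of the most abundant messages of these cells to low ones. In the Eed controls they held 4.00%, 3.19% and 3.81% of all reads, and 8 to 11 of the 33 stood among the 100 genes with the most reads. In the Ring1 controls they held 3.75% and 1.64% of reads, so the controls of that comparison differed from each other by more than any pair of Eed controls. Per kilobase of exon, the highest mean normalised count in the Eed controls was that of Zfp36, at 56045. Zfp36 encodes tristetraprolin, which binds AU-rich messages and speeds their decay. Fos followed at 50952 and Egr1 at 50688, and the ranges of these 3 genes over the control libraries overlapped. Dusp1, a phosphatase that switches off MAP kinases, stood at 37844 and Atf3, a stress-induced bZIP factor, at 29678. The small heat shock protein gene Hspb1 stood at 23742, above every other heat shock gene. The lowest levels per kilobase were those of Hsph1 (370), a co-chaperone of HSP70, Nr4a2 (370), an orphan nuclear receptor, and Gadd45a (264), a growth arrest and DNA damage gene. In the Ring1 controls the same 5 genes led the order, with Egr1 at 12675, Fos at 12155, Dusp1 at 12072, Atf3 at 11774 and Zfp36 at 10671 per kilobase, and Gadd45b was lowest at 82.0. The tables were normalised separately, so their levels cannot be compared with each other.

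**Figure D1:**
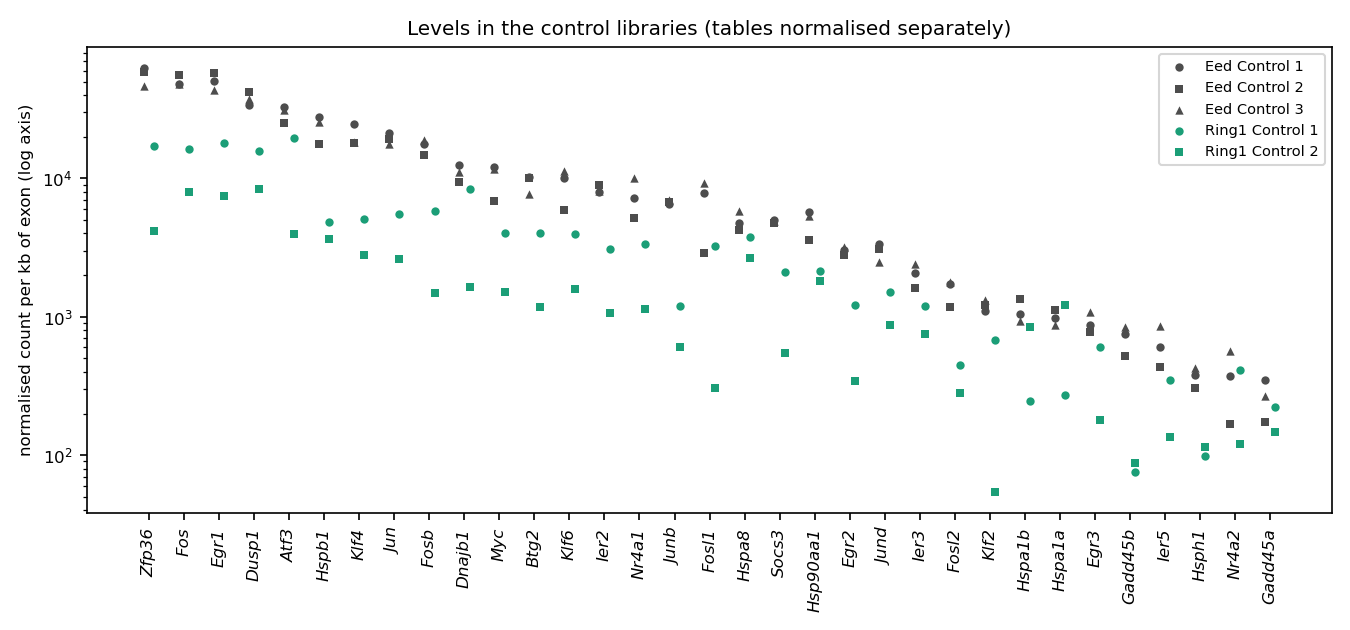
Normalised read count per kilobase of exon (log axis) of each of the 33 genes in the 3 Eed Control and 2 Ring1 Control libraries, ordered by the mean over the Eed controls; each point is 1 library. The Eed controls lie close together for most genes, while Ring1 Control 2 lies below Ring1 Control 1 for 29 of 33.

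Some of these counts rest on sequence that other genes share. Of all 31-base words in the exons, 70.1% in Hspa1a and 68.1% in Hspa1b also occurred in other genes, mostly in each other, so reads could be split between the pair. The share was 73.9% in Hspa8, the constitutive HSP70, mostly with the predicted gene Gm15459. It was 59.5% in Fosl1 (with the overlapping gene Ccdc85b), 55.4% in Hspb1 (with Hsp25-ps1), 54.1% in Hsp90aa1 (with Gm12346) and 50.1% in Jund (with Gm11175). The values of these 7 genes are uncertain in that respect. The share was 16.8% in Gadd45a and under that in every other gene of the set.

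The comparison of Eed KO with Eed Control asks how loss of the PRC2 core subunit changed these messages. The log2 fold change, taken on log2(normalised count + 1) with limma, was below 0 for 28 of the 33 genes and above 0 for 5, and its median was −0.26. Over all 16122 genes tested, 48.8% were lower and the median was 0.0080. None of the 33 genes was called by limma at a Benjamini-Hochberg adjusted p under 0.05, where the background was 0 of 16122 genes (0%). At an unadjusted p under 0.05 there were 2 of the 33, Klf2 and Klf4, and 762 of all genes (4.73%, and 1.33% in the lower direction, which both genes had). edgeR on the recovered reads also called 0 of the 33 and 0 of 15081 genes, with 698 genes (4.63%) at an unadjusted p under 0.05. The authors' deposited table called 127 of 16684 genes (0.761%, and 0.0539% in the lower direction) and 0 of the 33. The labels do not say whether libraries are separate mice, so p-values measure the spread between these samples.

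For 8 of the 33 genes (24.2%) every Eed KO library lay below every control, against 4.15% of all genes. The opposite order was seen for 0 of the 33, against 5.06% of all genes. The 8 were Fos, Jun, Junb, Egr1, Klf2, Klf4, Zfp36 and Dnajb1, and their values in each library follow by role.

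**Figure D2:**
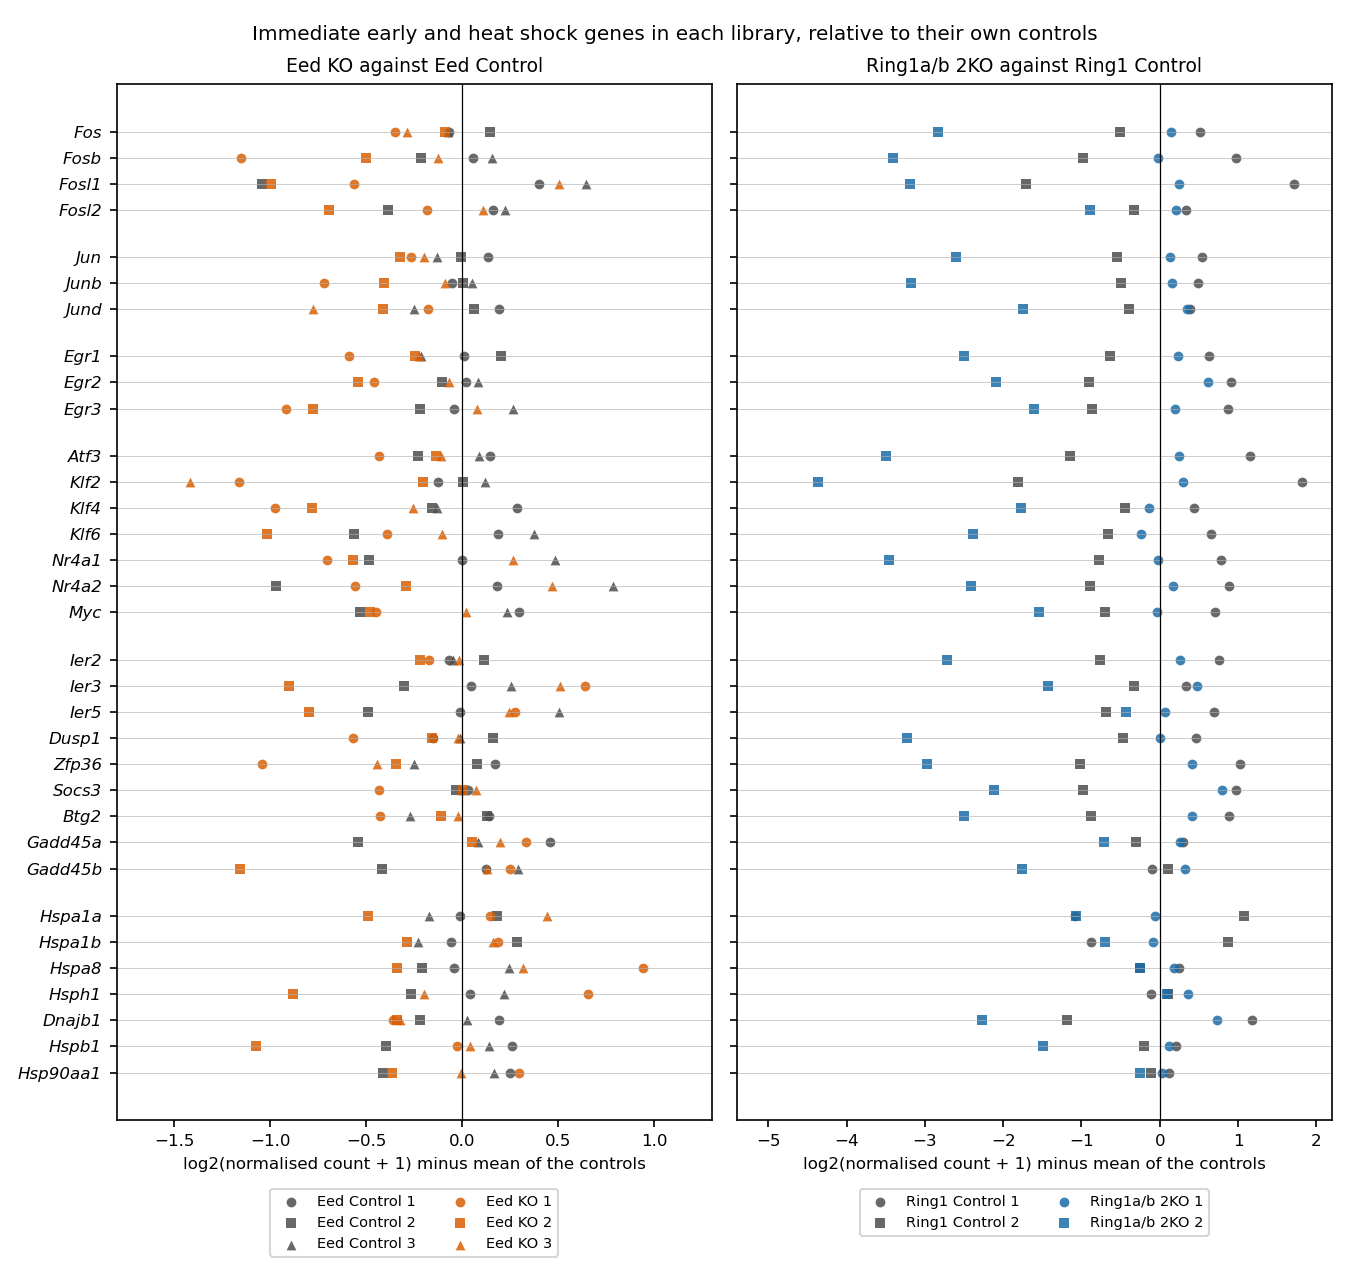
Each gene's log2(normalised read count + 1) in each library minus the mean of its own controls, in rows grouped as FOS, JUN, EGR, other transcription factors, regulators and heat shock genes; grey points are controls and colours are knockouts, and the x axes of the panels differ in range. Most Eed KO points lie somewhat left of 0, and Ring1a/b 2KO 2 stands far to the left for most genes while Ring1a/b 2KO 1 stays among the controls.

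The AP-1 genes were lower in all 7 cases. Fos (ENSMUSG00000021250.13, chromosome 12, 85473890 to 85477273, mm10), the prototype immediate early gene, had normalised counts of 113901, 132020 and 113596 in the controls. It had 93973, 112307 and 97924 in the Eed KO. The groups did not overlap, but the nearest libraries differed by little, and the log2 fold change was −0.24 (limma: SE 0.243, adjusted p = 0.989). Its partner Jun (ENSMUSG00000052684.4, chromosome 4, 95049034 to 95052222) had 67435, 61056 and 56110 in the controls, against 50937, 49105 and 53523 in the Eed KO. Its log2 fold change was −0.26 (limma: SE 0.219, adjusted p = 0.989). Junb (ENSMUSG00000052837.6, chromosome 8, 84974484 to 84978718), a JUN protein with weaker activation and a known role in epidermal homeostasis, had 15015, 15625 and 16181 in the controls. Its counts were 9471, 11784 and 14655 in the Eed KO, a wider spread than in the controls, and the log2 fold change was −0.40 (limma: SE 0.212, adjusted p = 0.989). The other AP-1 genes had overlapping groups. Log2 fold changes were −0.59 for Fosb, −0.35 for Fosl1, −0.26 for Fosl2 and −0.45 for Jund. Fosl1 (FRA-1) varied most within the controls, with 15955, 5864 and 18907, and its Eed KO counts of 8184, 6069 and 17188 lay within that range.

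The zinc finger factors of the EGR family were also lower in each case. Egr1 (ENSMUSG00000038418.7), an early growth response factor and the gene with the highest count in this set, had 227419, 259974 and 194462 in the controls. It had 150267, 190573 and 193274 in the Eed KO, so control 3 and KO library 3 were nearly equal. Its log2 fold change was −0.35 (limma: SE 0.277, adjusted p = 0.989). Egr2 had a log2 fold change of −0.36 and Egr3 of −0.54, with overlapping groups.

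Of the other early transcription factors, the Krüppel-like factors stood lowest. Klf2 (ENSMUSG00000055148.7, chromosome 8, 72319033 to 72321656), known from endothelial and lymphoid quiescence, had 2044, 2235 and 2424 in the controls, against 994, 1937 and 835 in the Eed KO. KO library 2 lay just under the controls and the other 2 libraries far under them. The log2 fold change was −0.93 (limma: SE 0.294, p = 0.0113, adjusted p = 0.868), and the authors' deposited table gave an adjusted p of 0.434. Klf4 (ENSMUSG00000003032.8, chromosome 4, 55527143 to 55532466), a factor required for the skin barrier and made as keratinocytes differentiate, had 74863, 55022 and 56043 in the controls. It had 31160, 35734 and 51440 in the Eed KO. The log2 fold change was −0.67 (limma: SE 0.269, p = 0.0335, adjusted p = 0.989), and the authors' deposited table gave an adjusted p of 0.456. Klf6 had a log2 fold change of −0.50 with overlapping groups. The nuclear receptor genes Nr4a1 (−0.34) and Nr4a2 (−0.13), the stress factor Atf3 (−0.23) and the growth regulator Myc (−0.30) were within the spread of their libraries.

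Among the 9 regulators and feedback genes, 7 were lower and 2 higher. Zfp36 (ENSMUSG00000044786.6, chromosome 7, 28376784 to 28380253) had 217184, 203954 and 162295 in the controls, against 93728, 151917 and 141719 in the Eed KO. KO library 1 was far below the others, and the log2 fold change was −0.61 (limma: SE 0.296, adjusted p = 0.989). The other 8 had overlapping groups. Log2 fold changes were −0.25 for Dusp1, −0.12 for the cytokine signalling inhibitor Socs3, −0.19 for the antiproliferative gene Btg2 and −0.26 for Gadd45b. They were −0.14 for Ier2, 0.08 for Ier3 and −0.09 for Ier5, all short and rapidly induced, and 0.19 for the DNA damage gene Gadd45a.

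The 7 heat shock genes did not share 1 direction, with 4 lower, 3 higher and a median of −0.03. Dnajb1 (ENSMUSG00000005483.10, chromosome 8, 83608193 to 83612653), an HSP40 co-chaperone that is itself a target of heat shock factor 1, had 39795, 29999 and 35542 in the controls. It had 27205, 27605 and 27899 in the Eed KO, which were close together, and a log2 fold change of −0.34 (limma: SE 0.21, adjusted p = 0.989). The inducible HSP70 genes had log2 fold changes of 0.03 (Hspa1a) and 0.02 (Hspa1b). Hspa8 had 20377, 18153 and 24861 in the controls, against 40307, 16543 and 26131 in the Eed KO, so its log2 fold change of 0.31 rested on KO library 1. Hsph1 (−0.14), Hspb1 (−0.35) and the HSP90 gene Hsp90aa1 (−0.03) had overlapping groups.

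Single libraries differed in how many of the genes they held low. Eed KO library 2 lay below every control for 25 of the 33 genes, against 19.9% of all genes, and above every control for 0, against 20.1%. Library 1 lay below for 17, against 29.7% of all genes, and above for 4, against 33.2%, of which Hspa8, Hsph1 and Hsp90aa1 are heat shock genes and the fourth was Ier3. Library 3 lay below for 9, against 20.5% of all genes, and above for 4, Hspa1a, Hspa8, Ier3 and Socs3, against 20.4%. The median of the 33 genes against the control mean was −0.39, −0.40 and −0.01 in KO libraries 1 to 3, and 0.06, −0.21 and 0.09 in controls 1 to 3. Control 2 was therefore itself lower than the other controls, and the most negative median of the Eed comparison with 1 library left out, −0.40, came without it. The Eed KO libraries also had the higher mitochondrial shares, 3.31%, 3.58% and 2.85% against 2.34%, 2.81% and 2.51%, and Merkel cell markers summed to 91.1, 13.5 and 28.4 against 10.7, 3.04 and 12.1. Suprabasal keratinocyte markers summed to 253797, 389185 and 188311 in the controls, against 117870, 275286 and 147626 in the Eed KO. Those sums overlapped between the groups, as did the sums of every other marker list except Merkel cell. The part of any of these in the result was not tested. In these bulk samples, fewer cells with high levels and less RNA per cell cannot be told apart.

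**Figure D3:**
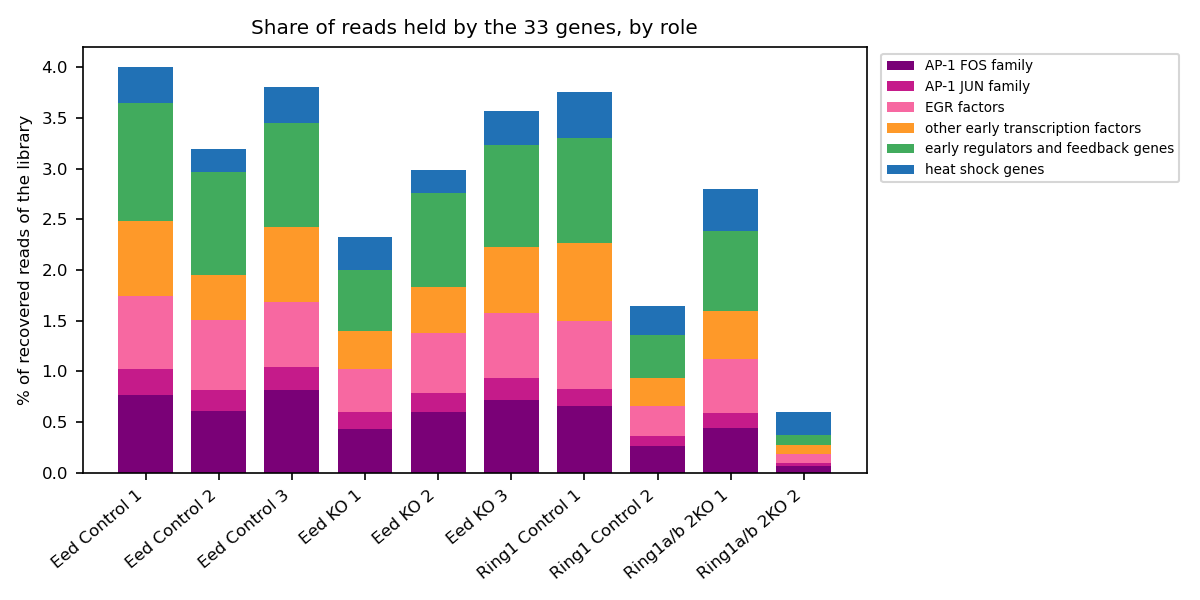
Share of all recovered reads (y axis, percent) held by the 33 genes in each of the 10 libraries, stacked by role. The share lies between 2.33% and 4.00% in the Eed libraries, and between 0.593% (Ring1a/b 2KO 2) and 3.75% (Ring1 Control 1) in the Ring1 libraries.

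The comparison of Ring1a/b 2KO with Ring1 Control asks the same of the 2 ubiquitin ligase subunits of PRC1. The log2 fold change was below 0 for 32 of the 33 genes, with a median of −0.79, against 50% of all 15310 genes and a median of −0.00062. The spread between libraries was wider still, with standard errors from 0.213 to 2.7. limma called 0 of the 33 genes at an adjusted p under 0.05, where it called 6 of 15310 genes (0.0392%, and 0.00653% in the lower direction). At an unadjusted p under 0.05 there were 0 of the 33 and 1597 of all genes (10.4%, and 4.81% in the lower direction). edgeR on the recovered reads called 0 of the 33 and 6 of 14565 genes (0.0412%), with 1451 (9.96%) at an unadjusted p under 0.05. The authors' deposited table called 231 of 15498 genes (1.49%, and 0.31% in the lower direction) and 0 of the 33. The groups overlapped for every one of the 33 genes, while 21.5% of all genes had both 2KO libraries below both controls and 21.4% had both above.

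The median depended on which libraries were compared. Library 2 of the 2KO was the lowest of the 4 for 29 of the 33 genes, against 32.0% of all genes. Library 1 of the 2KO lay within the range of the controls for 30, against 33.6% of all genes, and above it for 3, Gadd45b, Hsph1 and Ier3, against 32.3%. Control 1 was the highest of the 4 for 28 genes, against 24.3% of all genes. The 33 genes held 3.75% and 1.64% of reads in the controls, against 2.80% and 0.593% in the 2KO. Without 2KO library 2 the median was 0.20, with 26 genes higher and 7 lower, and without 2KO library 1 it was −2.11. The library with the lowest values was also the shallowest and had the highest mitochondrial share, 12.7%, and the part of either in the result was not tested.

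**Figure D4:**
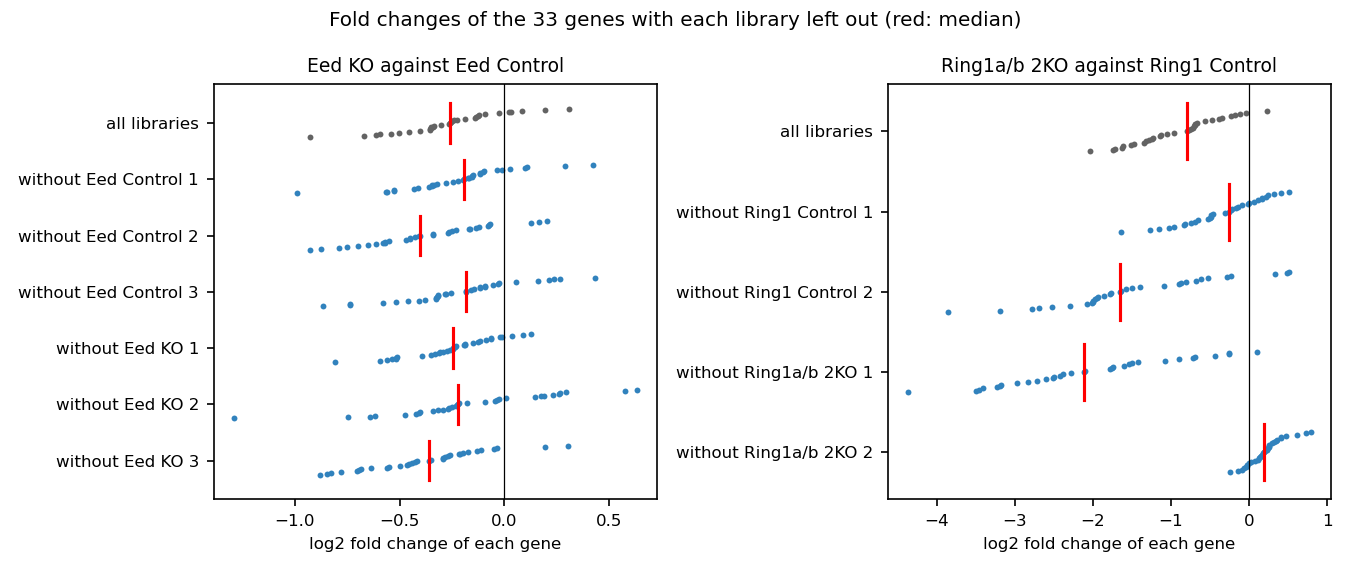
Log2 fold change of each of the 33 genes (x axis; 1 point per gene, sorted upward within a row) with all libraries and with each library left out, and the median as a red bar. In the Eed comparison the median stays between −0.40 and −0.19, and in the Ring1a/b comparison it lies between −2.11 and 0.20 and is above 0 without Ring1a/b 2KO 2.

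The Ring1 libraries also differed in pairs by depth. Control 1, the deeper control, was above control 2 for 29 of the 33 genes with a median log2 difference of 1.27, where the median over all genes was 0.01. The exceptions were Gadd45b, Hspa1a, Hspa1b and Hsph1. Of all genes, 48.6% were lower in control 1 than in control 2. Library 1 of the 2KO was above library 2 for all 33 genes, with a median of 2.58 and a range from 0.26 to 4.67. Of all genes, 49.6% were lower in library 1 than in library 2. Between the deeper library of each group the 2KO was lower for 28 of the 33 genes, with a median of −0.41. For all genes this pair had 51.7% lower and a median of −0.016. Between the shallower libraries the 2KO was lower for 32 of the 33, all but Ier5, with a median of −1.52. For all genes this pair had 49.7% lower and a median of 0.0026. Such differences are between single libraries and have no replicate check. The median within-group SD (log2) of the 33 genes was 0.98 in the Ring1 controls, where it was 0.23 over all genes and 0.13 over genes with a mean count of at least 1000. It was 1.83 in the 2KO, where these medians were 0.27 and 0.18. In the Eed controls it was 0.23, beside 0.33 over all genes and 0.22 over the abundant ones, and in the Eed KO 0.37, beside 0.37 and 0.24.

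The AP-1 genes of the Ring1 libraries showed this order throughout. Fos had normalised counts of 38340 and 18838 in the controls, against 29562 and 3781 in the 2KO, with a log2 fold change of −1.35 (SE 1.42). Fosb had 36139 and 9313 against 18099 and 1727, with a log2 fold change of −1.71. In both, 2KO library 1 lay between the controls. Jun had 17620 and 8334 against 13276 and 1992, and Junb 2764 and 1403 against 2187 and 217. Fosl1 had 6649 and 617 in the controls, a ratio of 10.8 within 1 group, and 2412 and 221 in the 2KO. Fosl2 was the steadiest AP-1 gene, with a log2 fold change of −0.34 (SE 0.43), and Jund had −0.70.

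The EGR genes had log2 fold changes of −1.14 (Egr1), −0.74 (Egr2) and −0.70 (Egr3). Egr1 had 80276 and 33395 in the controls, against 60805 and 9135 in the 2KO.

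Klf4 had the smallest limma p of the 33 genes in this comparison. Its counts were 15553 and 8455 in the controls, against 10389 and 3355 in the 2KO, with a log2 fold change of −0.96 (limma: SE 0.722, adjusted p = 0.725). Klf6, a relative induced by injury, had 17494 and 7029 against 9376 and 2121, with a log2 fold change of −1.31 (limma: SE 1.1, adjusted p = 0.761). Without 2KO library 2 that value was −0.24 for Klf6 and −0.14 for Klf4. The nuclear receptor gene Nr4a1 had 11867 and 4021 in the controls, against 6788 and 628 in the 2KO, with a log2 fold change of −1.74 (limma: SE 1.72, adjusted p = 0.803). Myc had 10945 and 4123 against 6565 and 2306, with a log2 fold change of −0.79 (limma: SE 0.85, adjusted p = 0.814). Nr4a1 and Myc were at −0.03 each without 2KO library 2. Klf2 had the most negative log2 fold change, −2.04 (SE 2.7). Its counts were 1247 and 99.7 in the controls, against 435 and 16.1 in the 2KO, so the libraries of each group differed from each other by more than the group means did. The last value rested on 9 reads. Atf3 had a log2 fold change of −1.63 and Nr4a2 of −1.12.

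Among the regulators, Dusp1 had 52392 and 27551 in the controls, against 38056 and 4056 in the 2KO. Its log2 fold change was −1.61 (limma: SE 1.53, adjusted p = 0.794), and 0.0024 without 2KO library 2. Gadd45b, at low counts of 121 and 140 in the controls, had 163 and 37.7 in the 2KO, above and below both controls. Its log2 fold change was −0.72 (limma: SE 0.671, adjusted p = 0.754), and 0.32 without 2KO library 2. Zfp36 had 59589 and 14467 against 39110 and 3756, a log2 fold change of −1.28. Ier2 (−1.23), Btg2 (−1.05), Socs3 (−0.66), Ier3 (−0.47), Gadd45a (−0.23) and Ier5 (−0.18) were lower by less than their library spread.

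The heat shock genes differed among themselves. Hsph1 was the only one of the 33 with a positive log2 fold change in all libraries together, 0.23 (limma: SE 0.213, adjusted p = 0.753), with 714 and 828 in the controls, against 983 and 823 in the 2KO. The group differences of Hspa8 and Hsp90aa1 were small. Hspa8 had 16210 and 11468 against 15471 and 11456 (log2 fold change −0.03), and Hsp90aa1 had 8362 and 7117 against 7849 and 6476 (−0.11). Hspb1 had 4976 and 3749 in the controls, against 4686 and 1535 in the 2KO, a log2 fold change of −0.69 (limma: SE 0.626, adjusted p = 0.769), and 0.12 without 2KO library 2. Hspa1a and Hspa1b, the inducible pair, were highest in control 2, the shallow control. Hspa1a had 811 and 3631 in the controls, against 1648 and 818 in the 2KO, and Hspa1b had 696 and 2350 against 1206 and 791. Dnajb1 followed the early genes, with 27079 and 5279 against 19859 and 2469. In 2KO library 2 the median against the control mean was −0.69 for the heat shock genes, −3.01 for the FOS family, −2.60 for the JUN family and −2.11 for the regulators.

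Without 2KO library 1, limma called 7 of the 33 genes lower: Dusp1, Fos, Hspb1, Ier3, Junb, Jund and Klf4. Their log2 fold changes ran from −3.23 for Dusp1 (adjusted p = 0.00826) to −1.43 for Ier3 (adjusted p = 0.0373). The same fit called 565 of all genes (3.7%, and 2.84% in the lower direction). It rests on 1 library of the 2KO, whose spread was taken from the controls. Suprabasal keratinocyte markers (6 genes) summed to 31927 and 27421 in the Ring1 controls, against 46156 and 51902 in the 2KO, and Merkel cell markers (3 of 4 in the table) to 6.25 and 13.3 against 105 and 34.1. Sums were 2228 and 2189 against 5957 and 3102 for hair follicle markers, 240 and 311 against 650 and 351 for melanocyte markers, and 52.1 and 66.5 against 93.9 and 108 for fibroblast markers. All 5 sums were higher in both 2KO libraries than in both controls, an order that 21.4% of all single genes had. Basal keratinocyte markers summed to 351340 and 277197 in the controls, against 288848 and 242988 in the 2KO. Those sums overlapped between the groups, as did the myeloid, T cell, endothelial and red blood cell sums. Itga6, which encodes the α6-integrin used in the sort, had a log2 fold change of −0.68 (limma: SE 0.224, adjusted p = 0.372). The part of these in the result was not tested.

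The 2 effects were then compared with each other. The difference, Eed effect minus Ring1a/b effect, ranged from −0.37 for Hsph1 to 1.41 for Nr4a1 with a median of 0.56. At an adjusted p under 0.05 limma called 0 of the 33 and 0 of 15096 genes (0%), with 0 of the 33 and 285 of all genes (1.89%) at an unadjusted p under 0.05, and edgeR called 0. The smallest limma p of the 33 was 0.208, for Dusp1. A difference between the knockouts was thus not detectable with these libraries.

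**Figure D5:**
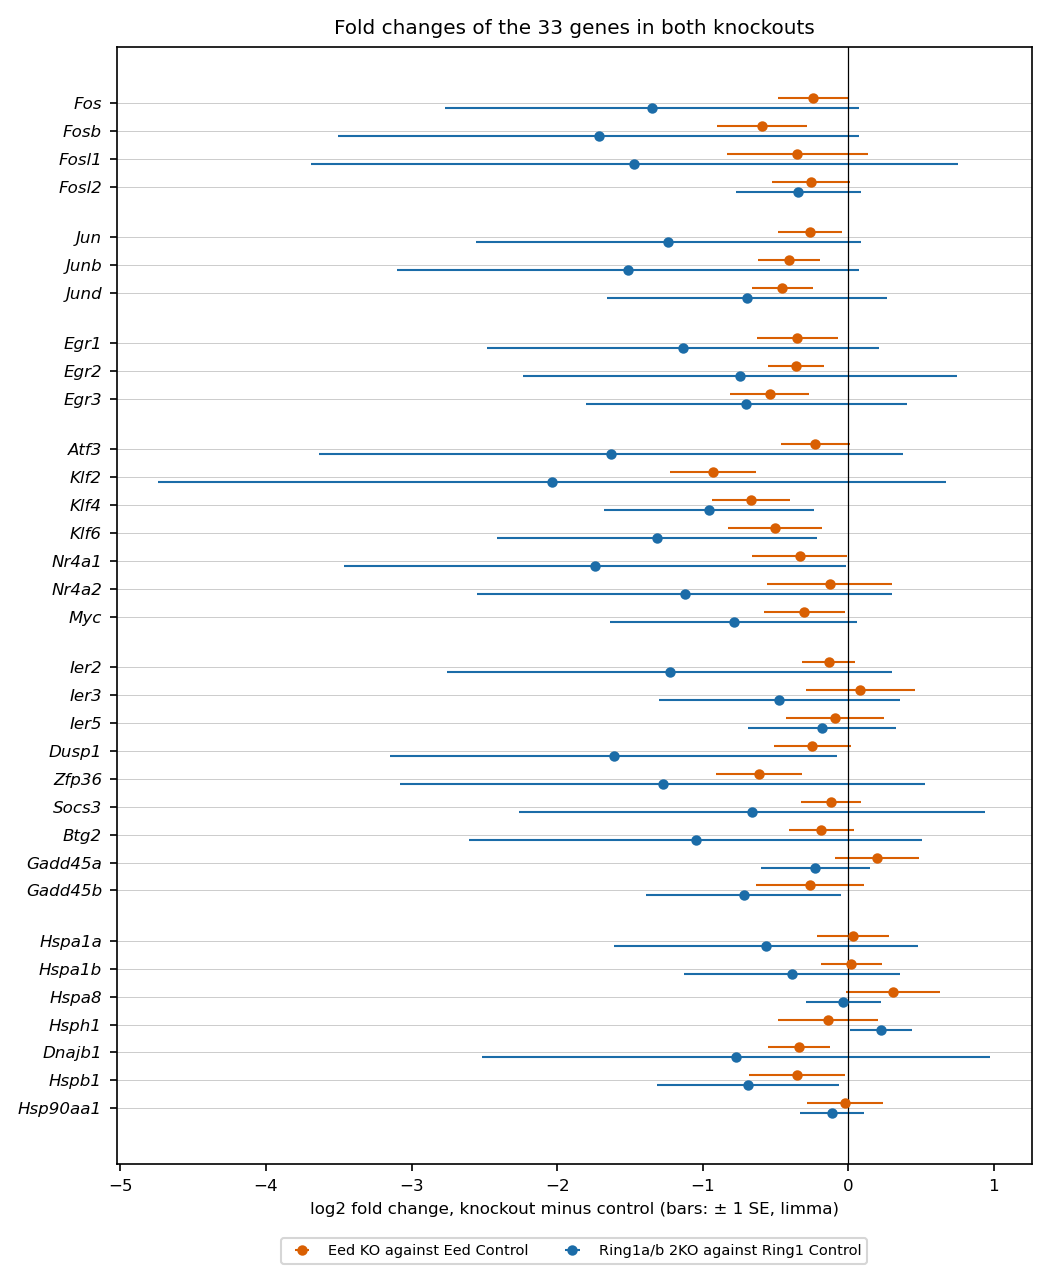
Log2 fold change of each of the 33 genes (x axis, knockout minus control, limma) in the Eed KO (orange) and the Ring1a/b 2KO (blue), with bars of 1 SE on each side. The Ring1a/b bars are wider for most immediate early genes and reach across 0 for most of them, and Hspa8 and Hsp90aa1 lie near 0 with short bars in the Ring1a/b 2KO.

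Related genes outside the 33 were read from 4 lists. Over all genes, 4.73% had an unadjusted limma p under 0.05 in the Eed KO and 10.4% in the 2KO. Of 34 other immediate early genes tested, 27 were lower in the Eed KO with a median of −0.30, and limma called 0, with 5 at an unadjusted p under 0.05. In the 2KO 30 of 34 were lower with a median of −0.90, and limma called 0, with 3 at an unadjusted p under 0.05. Among the genes that were higher was Ctgf, a secreted matrix protein gene induced through SRF and YAP. It had 504, 466 and 969 in the Eed controls, against 2282, 709 and 2549 in the Eed KO, a log2 fold change of 1.39 (limma: SE 0.478, adjusted p = 0.916). It had 119 and 183 in the Ring1 controls, against 718 and 459 in the 2KO, a log2 fold change of 1.95 (limma: SE 0.324, adjusted p = 0.129). The authors' deposited table called Ctgf in the 2KO (adjusted p = 0.000157) and not in the Eed KO (adjusted p = 0.0895), and limma called no gene for the difference between the effects. The next smallest p in the Eed KO were those of Tnfaip3, an inhibitor of NF-κB signalling (−0.96), and Ier5l (1.13). In the 2KO they were those of the clock gene Per1 (−0.88) and the prostaglandin synthase gene Ptgs2 (−1.32).

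The list of MAP kinase feedback genes and upstream factors stood closer to 0. In the Eed KO 15 of 20 tested genes were lower with a median of −0.16, and in the 2KO 16 of 20 with a median of −0.16. The median of this list against the control mean was −0.09 in 2KO library 1 and −0.39 in 2KO library 2. limma called 0 in both, with 1 and 5 at an unadjusted p under 0.05, where the shares of all genes were 4.73% and 10.4%. The smallest p in the Eed KO were those of the ternary complex factor Elk3 (1.47) and the MAP kinase inhibitors Spry4 (2.11) and Spred1 (0.33). Elk3 had 123, 116 and 141 in the controls, against 932, 234 and 196 in the Eed KO, with KO library 1 far above the others. Spry4 had low counts and overlapping groups, 0.974, 4.06 and 25.3 in the controls against 58.8, 17.6 and 18.1. In the 2KO the smallest p were those of Srf itself (−1.29, SE 0.341, limma adjusted p = 0.275), Spry1 (−1.22) and Spred2 (−0.76). Srf had 599 and 331 in the Ring1 controls, against 214 and 152 in the 2KO, so here the groups did not overlap. Both 2KO libraries also lay below both controls for 21.5% of all genes.

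Chaperone genes outside the 33 had medians near 0. Of 23 tested, 10 were lower in the Eed KO (median 0.04) and 8 in the 2KO (median 0.04). In both, limma called 0, with 2 and 4 at an unadjusted p under 0.05, where the shares of all genes were 4.73% and 10.4%. The smallest p in the Eed KO were those of Dnajb4 (−0.61), Hspb8 (−0.53) and Cryab (1.09). In the 2KO they were those of the mitochondrial chaperonin genes Hspe1 (0.75) and Hspd1 (0.72) and of the heat shock factor gene Hsf2 (−0.66). Of 14 genes of endoplasmic reticulum and integrated stress, 10 were lower in the Eed KO (median −0.14) and 8 in the 2KO (median −0.27). In both comparisons 0 were called by limma and 0 had an unadjusted p under 0.05. Against the control mean, their median was 0.17 in 2KO library 1 and −0.55 in 2KO library 2. Herpud1 was among the smallest p in both comparisons (−0.45 and −0.70), with Trib3 (0.77) and Atf4 (−0.38) in the Eed KO and Ddit4 (0.76) and Ddit3 (−0.61) in the 2KO.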

How the data were processed

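RNA was measured in 10 libraries of sorted epidermal cells, in 4 groups. Per the submitters' processing notes, the authors used kallisto 0.42.5 and DESeq2 3.11 with mm10. The deposited per-library values are normalised counts, a signal unit. Each library's values divided by the worth of 1 read gave whole numbers for 100% of genes (tolerance 1e-06), so reads were recovered from the authors' values. The authors also deposited log2 fold changes and p-values, raw and adjusted, quoted only as theirs, and a Wald statistic, a score, which was not used.

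limma 3.58.1 (trend, robust; R 4.3.3) modelled log2(value + 1) of the genes whose mean reached 5, each knockout against its own controls, with Benjamini-Hochberg adjustment over all genes and a threshold of 0.05. All 33 genes passed the filter. A fold change on this scale understates the change of low genes. edgeR 4.0.16 and DESeq2 1.42.0 on recovered reads were alternatives, with other filters, pseudocounts, thresholds, scalings, a replicate block and each library left out. The limma fit was also run on simulated data, with large changes and a dispersion common to all genes. In the Ring1 libraries the 33 genes spread more widely than all genes. The simulation therefore does not show how well their changes are found.

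The members and lists were chosen with earlier results of these data known. All 33 genes were named. Values in each library were given for genes with an unadjusted p under 0.05, those the authors called and those whose groups did not overlap, and, if fewer than 8, the next smallest p up to 8, with a few others chosen after their values were seen. From each list up to 3 genes with the smallest p were named. Positions are from GENCODE M21. Marker lists were basal and suprabasal keratinocyte, hair follicle, melanocyte, Merkel cell, myeloid, T cell, fibroblast, endothelial and red blood cell. limma called 0 of these markers in either comparison, where it called 0 of 16122 and 6 of 15310 genes. At an unadjusted p under 0.05 in the 2KO were 4 of 9 basal, 3 of 6 suprabasal, 3 of 6 hair follicle and 4 of 7 melanocyte markers. Merkel cell and fibroblast lists had 1 each and the others 0, against 10.4% of all genes. In the Eed KO hair follicle had 2 of 6, melanocyte and Merkel cell 1 each and the others 0, against 4.73%. The sources used here do not say whether counting used strand, so antisense partners cannot be told apart. Replicate numbers recur across groups without a stated meaning, and whether they pair the libraries was checked by the correlation of deviations from group means.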

Additional observations from a re-analysis of the deposited data

How the results depend on the processing

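In the Eed KO 0 of the 33 genes were called under each alternative tried, and the median stayed between −0.39 and −0.23 over the settings that kept all libraries and between −0.40 and −0.19 with 1 library left out. The number of genes called, 0, was 10 in 1 fit over all 10 libraries, 127 by DESeq2 on recovered reads and in the authors' deposited table, 1 with the replicate block, and 0 to 4 with 1 library left out (2 without control 2 and 4 without KO library 2).

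In the Ring1a/b 2KO the number of genes called, 6, was 0 in 1 fit over all 10 libraries, 10 with no filter, 231 by DESeq2 and in the authors' deposited table, 36 with the replicate block, and 0 to 565 with 1 library left out (0 without either control, 13 without 2KO library 2). Of the 33 genes, 0 to 7 were called with 1 library left out and 1, Fosl1, with the replicate block. The median ranged from −2.11 to 0.20 with 1 library left out, and reversed without 2KO library 2. Without that library 26 of the 33 genes were higher, against 1 with all libraries. Of the 8 given in full, Dusp1 (−3.23 to 0.0024), Gadd45b (−1.76 to 0.32) and Hspb1 (−1.49 to 0.12) reversed. The pairs of single libraries by depth (−0.41 and −1.52) were added after seeing the data. The count of genes with a difference between the effects was 0 to 4 with 1 library left out. Over 264 values under alternatives of the 8 genes given in full in each comparison, 261 kept their direction. The 8 Eed genes had groups that did not overlap, so they could not reverse with 1 library left out. The 8 Ring1a/b genes were those with the smallest p, so this count does not measure the stability of the 33.

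Same-numbered Eed libraries had deviations correlated at −0.11, 0.15 and 0.21, and differently numbered ones at −0.23 to 0.11. In the Ring1 libraries the values were 0.14 and −0.14, which mirror each other by construction. Deposited names of same-numbered Eed libraries also share a letter, without a stated meaning. These values do not settle whether the numbers are pairs, and the libraries were treated as unpaired. A group left with 1 library was assumed to vary like the other groups. In the shallow Ring1 libraries low genes rested on few reads, as Klf2 did on 9 reads in 2KO library 2. The cause of the changes above was not tested.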
